A study of Homo sapiens with 4 samples.

Results

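The SNORD115 and SNORD116 cluster on chromosome 15 is a tandem array of C/D box small nucleolar RNAs (snoRNAs). Its members were taken by position as every listed feature on the plus strand of chromosome 15 that lay between 24.97 and 25.29 Mb (GRCh38). This gave 84 members of the 7062 small RNA features in the count tables. They comprised 30 SNORD116 copies, 49 features named SNORD115 and 5 others, which were SNORD107, SNORD64, SNORD108, SNORD109A and SNORD109B. Counts came from small RNA sequencing (single-end reads of 50 bp) of HEK293T cells, a human embryonic kidney line. The 52X T4A cells were transiently transfected with the large Pol II (RNA polymerase II) subunit RPB1 carrying a C-terminal domain in which threonine at position 4 of the heptad repeats was replaced by alanine. The 52X WT cells received the same subunit with the wild-type domain, and 52X stands for its 52 repeats. Both groups were transfected with 1.5 μg of plasmid per well, followed by 72 h in 2.5 μg/ml α-amanitin, a Pol II toxin that removes untransfected cells. Expression was therefore transient, and no library of untransfected or untreated cells was analysed here. Each group had 2 libraries, described as biological replicates. The constructs are not small RNAs, so the tables give no measure of them.

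C/D box snoRNAs are short nucleolar RNAs that bind fibrillarin and other core proteins through their C and D boxes, and most of them guide 2'-O-methylation of ribosomal or spliceosomal RNA. The chromosome 15 array differs from these in being orphan for the most part, with no established ribosomal target. It is processed from introns of SNHG14, a long Pol II transcript made from the paternal chromosome, which is strong in neurons, and loss of the paternal SNORD116 copies is linked to Prader-Willi syndrome. SNORD115 carries a stretch complementary to the mRNA of the serotonin receptor HTR2C, and its known expression is largely confined to brain.

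Nearly the whole array was at 0 in these cells. Of the 84 members, 79 had 0 counts in all 4 libraries and 5 had any count, or 5.95%, whereas 53.9% of all 7062 features had at least 1. Those 5 were SNORD116-1, SNORD116-3, SNORD116-5, SNORD116-7 and SNORD116-9, and each had 3 counts in 52X T4A replicate 1 and 0 in the other 3 libraries. No member therefore exceeded 3 counts in any library. In bulk RNA, fewer cells that make an RNA and less of it per cell cannot be told apart.

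The sequences of the SNORD116 copies show what the 5 copies with counts shared. Sequences were taken from the GENCODE transcript with the same Ensembl identifier and length, which was found for 72 of the 84 members. The copies below are the first of the array, 2 further copies with counts, and a pair of neighbours at 0. Capitals mark the longest stretch common to all 5 copies with counts.
SNORD116-1: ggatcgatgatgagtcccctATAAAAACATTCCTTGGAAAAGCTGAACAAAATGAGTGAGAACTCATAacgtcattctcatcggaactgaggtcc
SNORD116-3: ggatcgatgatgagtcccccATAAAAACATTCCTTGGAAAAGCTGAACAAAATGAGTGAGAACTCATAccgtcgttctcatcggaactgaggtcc
SNORD116-5: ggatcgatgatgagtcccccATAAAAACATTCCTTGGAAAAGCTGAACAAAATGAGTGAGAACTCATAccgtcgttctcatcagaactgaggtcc
SNORD116-2: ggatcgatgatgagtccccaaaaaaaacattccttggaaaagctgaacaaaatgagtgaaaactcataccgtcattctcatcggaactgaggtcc
SNORD116-8: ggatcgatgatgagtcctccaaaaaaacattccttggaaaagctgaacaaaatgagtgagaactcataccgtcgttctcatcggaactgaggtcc

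The common stretch was 48 bases long, from base 21 to base 68 of SNORD116-1. Because it was defined from the copies with counts, the stretch is a description and not a test. It occurred in 0 of the other cluster members with a sequence and in 0 of the features outside the cluster, among 4838 features with a sequence in all. SNORD116-3 and SNORD116-9 were identical to each other, as were SNORD116-5 and SNORD116-7. Counting bases from 1 at the 5′ end of SNORD116-1, SNORD116-3 differed from it by T20C, A69C and A74G, all outside the common stretch. SNORD116-2, at 0, differed by T20A, T22A, G60A and A69C, of which T22A and G60A lie within it. SNORD116-8, also at 0, differed by C18T, T20C, T22A, A69C and A74G, of which T22A lies within it. The reads themselves were not examined, so the bases they covered are not known.

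The 5 copies lie in group I of SNORD116, which spans copies 1 to 9 and is the group closest to the proximal end of the array. SNORD116-1 (ENSG00000207063.1) is at chr15:25051477-25051571 and SNORD116-9 (ENSG00000206727.1) at chr15:25073107-25073201, both on the plus strand. The 5 copies shared at least 95.8% of their bases with one another (identity by edit distance over the longer sequence, with a median of 98.9% over 10 pairs). Identity alone did not separate them from the other group I copies. SNORD116-2, at 0, had 95.8% identity to SNORD116-1, the same value as SNORD116-5 with 3 counts, and SNORD116-6 and SNORD116-8, also at 0, had 94.8 and 94.7%. The sequence of SNORD116-4, at 0 as well, was not matched.

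**Figure D1:**
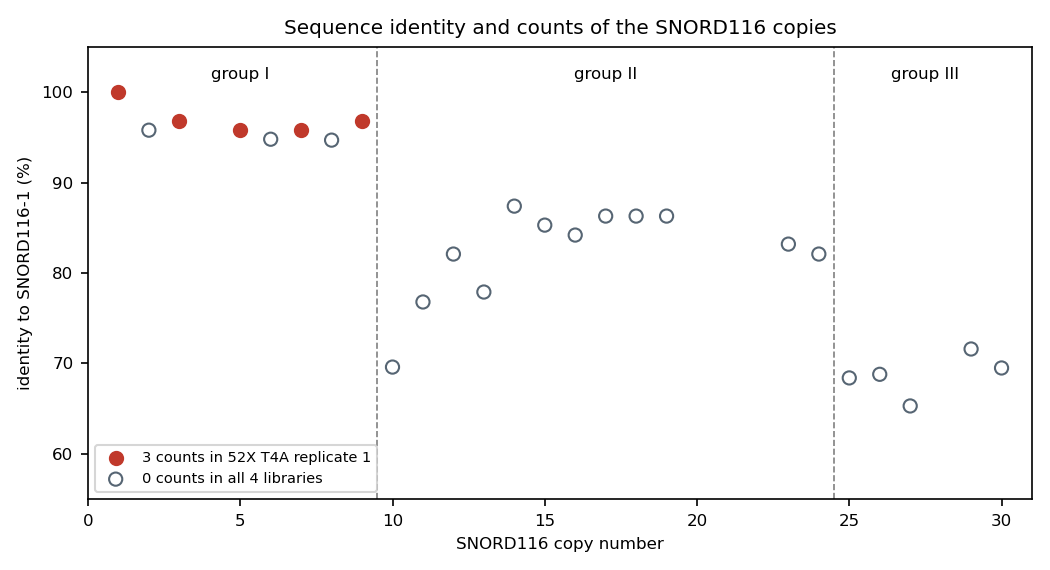
Identity of each SNORD116 copy with a matched sequence to SNORD116-1 (y axis, percent; the axis starts at 55) by copy number (x axis). Filled points are the 5 copies with 3 counts in 52X T4A replicate 1, all in group I at 95.8% or above, and open points are copies at 0 in all 4 libraries; dashed lines part the groups.

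Equal counts were also found among other copied features. Elsewhere in the tables, 16 sets of features with identical sequence had 20 or more counts in a member, and in 5 of these sets the copies held exactly equal counts in every library. MIR514A2 and MIR514A3, for example, both had 32, 75, 20 and 36 counts in 52X T4A replicates 1 and 2 and 52X WT replicates 1 and 2. The 16 identical RNA5S copies, genes of 5S ribosomal RNA, held 24716 to 25198 counts in 52X T4A replicate 1. Reads that match several loci were thus kept in the tables, and in some sets they were entered at each locus. The 15 counts of the cluster may then stand for 3 reads entered at 5 loci, which cannot be settled from the counts.

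The cluster members are listed at the following values by library. In 52X T4A replicate 1 the 84 members held 15 of 16180790 assigned counts. In 52X T4A replicate 2 they held 0 of 27370127 counts, in 52X WT replicate 1 they held 0 of 16195105, and in 52X WT replicate 2 they held 0 of 19159242. The counts of the 2 libraries of 52X T4A thus differed, by 3 at each copy with counts, and 1 library was at the level of both 52X WT libraries. Whether more than counting error parted the 52X T4A libraries was not tested. Group levels overlapped for all 84 members, which is fixed when every member is at 0 in a library of each group.

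**Figure D2:**
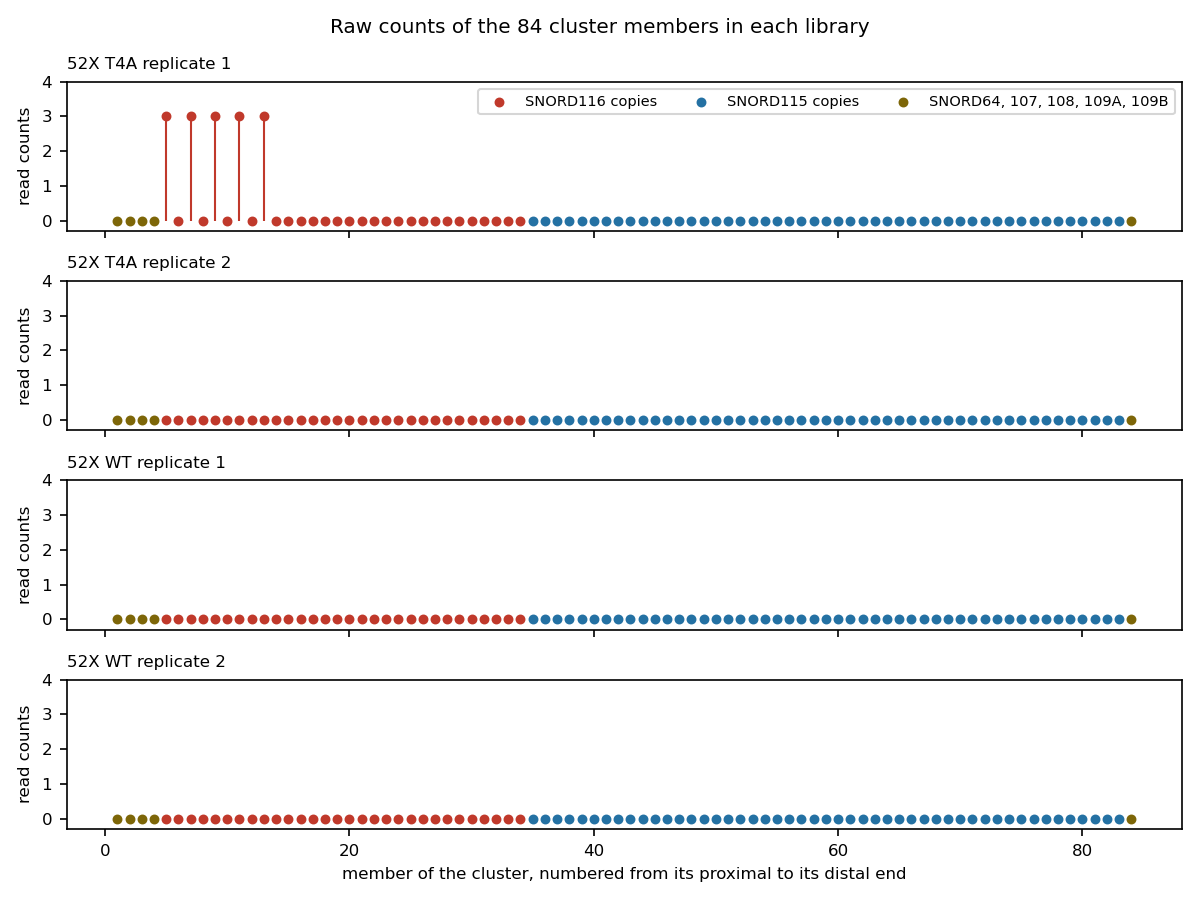
Raw read counts (y axis) of the 84 members, numbered in order of position along the cluster (x axis), in each of the 4 libraries (panels). In 52X T4A replicate 1, 5 SNORD116 copies stand at 3 counts; every other point of the 4 panels is at 0.

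The depth sets what these values can show. Levels were expressed in counts-per-million units (CPM) with library sizes scaled by TMM factors, a correction for composition. A single copy with 3 counts was at 0.189 CPM in 52X T4A replicate 1. Without that scaling, as a plain share of assigned counts, this is 0.185 CPM, with an exact 95% binomial interval (Clopper-Pearson) of 0.0382 to 0.542 CPM. Such intervals, and the limits that follow, cover counting error only, since the reads carried no stated molecular identifiers. The same share would correspond to 5.07 counts in the deeper library, 52X T4A replicate 2, where 0 were found. A count of 0 allows up to 3 counts, or 0.095 CPM in 52X T4A replicate 2, 0.206 CPM in 52X WT replicate 1 and 0.159 CPM in 52X WT replicate 2. Over both 52X WT libraries, 0 of 35354347 counts allows up to 0.0849 unscaled CPM for any member.

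The comparison of 52X T4A with 52X WT asks how the snoRNAs of this Pol II host transcript differ when position 4 of the repeats cannot be phosphorylated. The summed level of the cluster was 0.947 CPM in 52X T4A replicate 1 and 0 CPM in 52X T4A replicate 2, a mean of 0.474 ± 0.67 CPM (SD, n = 2). Both 52X WT libraries were at 0 CPM. If the same reads were entered at several loci, as may be the case, the sum counts each of them more than once. The group difference was smaller than the spread between the 52X T4A libraries, and without 52X T4A replicate 1 it was 0. Both outcomes are fixed when only 1 library has counts, so neither bears on whether the groups differ. No fold change is given, because both groups were at or under the limit of 3 counts per copy and library. A difference smaller than the limit of 3 counts in a library was not detectable at this depth. With 2 libraries against 2, 0.333 is the smallest two-sided p that exact permutation allows.

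No member could be tested in the fit across all features. At a filter for 10 counts, 0 of the 84 members were among the 1480 features tested, so 0 were called in edgeR's quasi-likelihood test (a call required an FDR under 0.05 with more than 1.5-fold change, which 0.135% of all tested features met). No member had an unadjusted p to set against 0.05 there. Without a filter, the 5 copies with counts entered the test and each had an adjusted p of 0.883 in edgeR (Benjamini-Hochberg, unadjusted p 0.251), with 0.763% of the 3803 features called. DESeq2 gave each copy an unadjusted p of 0.448 and no adjusted p, with 0.789% of the 3803 features called. The base of that share includes features without an adjusted p, such as these copies, which could not be called. The groups did not overlap in 0 of the 84 members, against 16.3% of all listed features. Every member was at 0 in 52X T4A replicate 2 and in both 52X WT libraries. The 0 was therefore fixed in advance and does not bear on whether the groups differ. Without 52X T4A replicate 2 the groups did not overlap in 5 of 84 members (5.95%), against 29.4% of all features in the same setting. Those were the 5 copies with counts, so this share is fixed as well and only restates which members had a count.

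The remaining members of SNORD116 were at 0 in each library. Group II, copies 10 to 24, had 15 of 15 copies at 0, and group III, copies 25 to 30, had 6 of 6. In sequence these groups stood apart from group I, with 69.6 to 87.4% identity to SNORD116-1 in group II and 65.3 to 71.6% in group III. A copy of each is shown with the C box and D box in capitals, the elements that hold the core proteins.
SNORD116-17: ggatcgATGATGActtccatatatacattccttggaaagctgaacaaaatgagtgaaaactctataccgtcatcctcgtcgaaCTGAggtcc
SNORD116-25: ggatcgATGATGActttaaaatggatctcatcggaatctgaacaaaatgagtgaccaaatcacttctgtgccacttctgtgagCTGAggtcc

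The boxes were sought on the sense strand as NTGATGA in the first 15 bases and CTGA in the last 15, which do not overlap. Both were found in 24 of 25 SNORD116 sequences (96%) and in 38 of 45 SNORD115 sequences (84.4%). The same windows held both boxes in 39.1% of 207 other C/D box snoRNAs and in 60.5% of 43 snoRNAs of the 14q32 array described further on. The annotated ends of features differ, so a missing match says only that the letters are not in these windows.

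All 49 features named SNORD115 had 0 counts in all 4 libraries. They spanned chr15:25159221-25269858, and the pairwise identity of the 45 with a sequence had a median of 92.7%. Some were identical, and SNORD115-11, SNORD115-29, SNORD115-36 and SNORD115-43 formed a set of 4. The 18 bases before the D box, the stretch known for pairing with HTR2C mRNA, are in capitals in the most common form and in a variant shared by SNORD115-17, SNORD115-18 and SNORD115-19.
SNORD115-11: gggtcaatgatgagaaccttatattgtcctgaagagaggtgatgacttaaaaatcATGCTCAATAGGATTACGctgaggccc
SNORD115-17: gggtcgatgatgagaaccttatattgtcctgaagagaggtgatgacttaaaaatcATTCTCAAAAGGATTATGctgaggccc

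Of 41 numbered SNORD115 copies with a D box in the window, 27 carried the most common form, and 11 forms occurred in all. The reverse complement of that form, CGTAATCCTATTGAGCAT, was found in 2 of 3 HTR2C transcripts of the annotation, and the other forms in 0. None of these 41 copies had a count, with either form.

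The 5 members outside both families were also at 0 in each library. SNORD107 (chr15:24981994-24982068), SNORD64 (chr15:24985100-24985166) and SNORD108 (chr15:24986925-24986995) lie before the SNORD116 array. SNORD109A (chr15:25041974-25042040) lies just ahead of SNORD116-1, and SNORD109B (chr15:25278343-25278409) lies beyond the last SNORD115 copy. SNORD108 and SNORD109B, the ones among them with a matched sequence, are shown with the boxes found in capitals. SNORD108 has no CTGA in its last 15 bases.
SNORD108: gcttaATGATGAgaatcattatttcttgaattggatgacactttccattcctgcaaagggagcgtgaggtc
SNORD109B: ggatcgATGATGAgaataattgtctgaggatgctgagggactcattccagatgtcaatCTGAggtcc

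The zeros thus ran the length of the locus, from SNORD107 to SNORD109B, in both repeated families and in the members outside them. The 72 members found in the annotation by identifier lie within SNHG14 on the same strand, and 27 of these overlap an exon of at least 1 SNHG14 transcript while the others are intronic. No small RNA feature is listed on the opposite strand of the window. Within 1 Mb on either side, 2 features are listed, of which MIR4715 had 3 counts in 52X WT replicate 2 and 0 in the other libraries, and the copy named SNORA48 had 0 in all 4. Elsewhere in the genome, 5 features carry the names SNORD64, SNORD115 or SNORD116, and 0 of these had a count.

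The 14q32 snoRNAs, SNORD112, SNORD113 and SNORD114, are the most similar group. They are likewise C/D box snoRNAs in a tandem, imprinted array, expressed from the maternal chromosome. Of 46 such features on chromosome 14, 23 had a count in any library, or 50% against 5.95% for the chromosome 15 cluster. Their counts summed to 75 and 52 in the 52X T4A libraries and to 70 and 68 in the 52X WT libraries. In CPM the 52X T4A libraries averaged 3.19 ± 2.19 (SD, n = 2) and the 52X WT libraries 4.20 ± 0.838 (SD, n = 2), and the groups overlapped. SNORD114-3 had the most, with 16 and 12 counts in 52X T4A and 27 and 15 in 52X WT. It was the only one of them to pass the filter, and its log2 fold change of -1.0 had an SE of 0.62 and an edgeR adjusted p of 0.542 (Benjamini-Hochberg), so it was not called. Both imprinted arrays were thus at low levels, and counts were found in all 4 libraries for the array on chromosome 14 and in 1 library for that on chromosome 15.

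**Figure D3:**
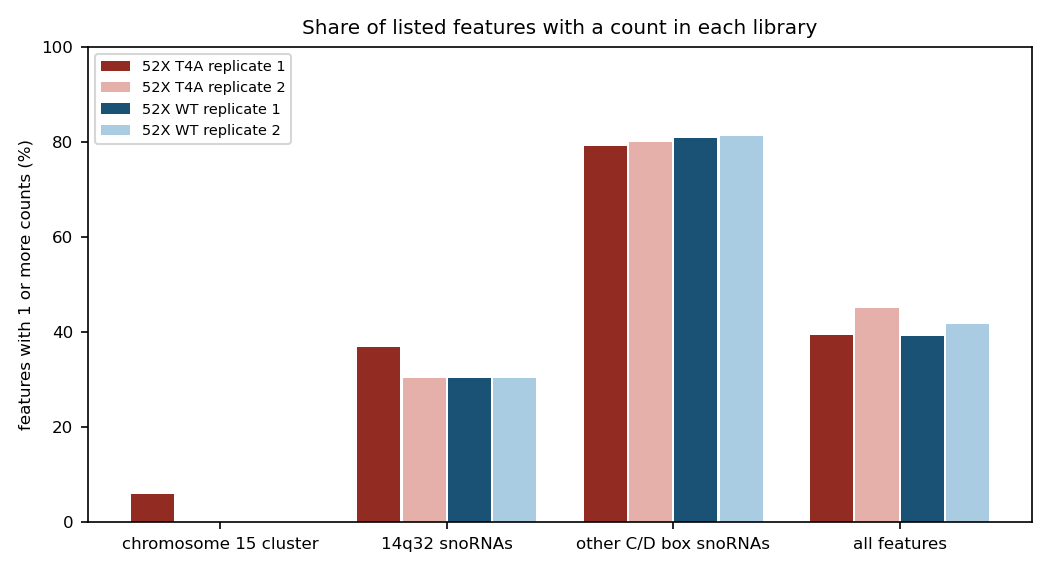
Percentage of listed features with 1 or more counts (y axis) in each of the 4 libraries (bars) for the chromosome 15 cluster, the 14q32 snoRNAs, other C/D box snoRNAs and all features. The cluster has a bar of 5.95% in 52X T4A replicate 1 and 0% in the other libraries, while other C/D box snoRNAs stand at 79.1 to 81.3%.

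C/D box snoRNAs as such were well represented. Of 235 other features with a SNORD name, 197 had a count (83.8%), and 176 exceeded 3 counts in every library. Their median total over the 4 libraries was 1127 counts, against 0 for the cluster members. Per 100 bases of feature length, their median level was 13.9 and 12.7 CPM in the 52X T4A libraries and 17 and 12.8 CPM in the 52X WT libraries. The most abundant was SNORD1B, a snoRNA hosted by SNHG16, with 215572 and 263462 counts in 52X T4A and 174437 and 198191 in 52X WT. Of the 142 that lay within the length range of the numbered SNORD115 and SNORD116 copies, 118 had counts (median total of 1318). Over the 173 of them tested, the smallest adjusted p was 0.324 (edgeR, Benjamini-Hochberg), and the median log2 fold change was -0.17, beside -0.05 over all tested features. No test was made of the difference between the cluster and these lists, because the lists were set with earlier results known.

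**Figure D4:**
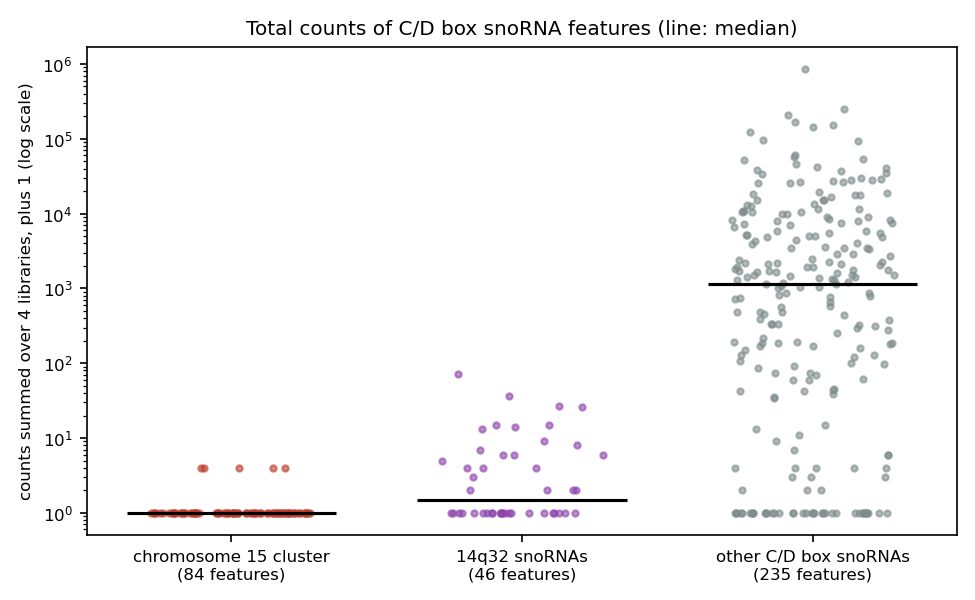
Counts summed over the 4 libraries plus 1 (y axis, log scale) for each feature (points) of the chromosome 15 cluster, the 14q32 snoRNAs and other C/D box snoRNAs, with the median as a line. The 84 cluster members lie at 0 or 3 counts, the 14q32 snoRNAs reach 70 and other C/D box snoRNAs reach 851662.

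As the array is known for its neuronal expression, small RNAs typical of other cell types were examined. All 7 of the neural miRNA genes that could be found by name, of 8 listed, had counts. Their summed level was 1370 and 1560 CPM in the mutant libraries and 1470 and 1770 CPM in the 52X WT libraries. Several are copies of one miRNA, and MIR124-1, MIR124-2 and MIR124-3 each had 23 counts in 52X T4A replicate 1. The sums may therefore hold the same reads more than once. The name MIR338 covered a feature on each strand, with 298 (plus) and 46 (minus) counts over the 4 libraries, and both are in the sums. MIR128-1 and MIR128-2 held most of the neural counts, and the neuronal miRNA precursor MIR124-3 had 23 and 86 counts in 52X T4A and 61 and 42 in 52X WT. MIR137, another neuronal miRNA of the list, was at or under the limit in every library, with 0 and 1 counts in 52X T4A and 3 and 0 in 52X WT. The 5 muscle miRNA genes summed to 96.5 and 81.6 CPM in the 52X T4A libraries and to 30.5 and 33.1 CPM in the wild type. These groups did not overlap, which also held for 594 of the 1480 features past the filter, taken singly. Over all listed features it was 16.3%, a base that includes features at 0 in every library, which cannot separate. MIR1-1 and MIR1-2 held most of the sum, with near-equal counts (738 and 740 in 52X T4A replicate 1). The sum may therefore hold the same reads more than once, and it mostly reflects these 2 genes. The liver miRNA MIR122, also a name for a feature on each strand, summed to 0.947 CPM or below in every library. The 4 blood miRNAs summed to 1.52 CPM or below. Counts for neural miRNAs other than MIR137 were present in each of the 4 libraries. Any part of these lists in the counts of the 5 SNORD116 copies was not tested.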

How the data were processed

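The authors deposited 1 table of raw read counts per library, with no normalization, and every column mapped to a sample. The submitters' processing notes name cutadapt 4.6, Bowtie2 2.3.5.1, featureCounts 1.5.0 and the build hg38, with no parameters; how multi-mapped reads were treated and which annotation was used are not given in the sources used here. Coordinates are those of the deposited tables. Members were named by Ensembl identifier in GENCODE v44lift37 (72), by an identical RefSeq position in GRCh38.p14 (7) or by a RefSeq snoRNA with both ends within 2 bases (5). Of all 7062 features, 554 stayed unnamed. Sequences came from GENCODE transcripts by identifier, never by coordinate; those of 12 members are not shown.

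All features were fitted in R v4.3.3 with edgeR v4.0.16 (quasi-likelihood F test, filterByExpr at a minimum count of 10, TMM factors, group as the only term). Adjustment of p-values was by Benjamini-Hochberg over all tested features, and the SE was derived from the log2 fold change and its F statistic. The test was checked on simulated counts. Alternatives were other scaling factors, filters, DESeq2 v1.42.0, a robust fit, the replicate number as a block, 1 feature per set agreeing within 2%, and removal of each library.

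The named members were all those outside both families, the SNORD116 and SNORD115 copies with the highest mean CPM (6 of each where counts allowed, 5 for SNORD116 and 0 for SNORD115) and any called member; other members and sequences were chosen for show after their values were seen. The members, comparison lists and miRNA lists were chosen with earlier results of these data known.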

Additional observations from a re-analysis of the deposited data

How the results depend on the processing

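The number of called members was 0 in the main setting and in all 16 alternatives, among them the replicate number as a block (0 called, beside 1.22% of all tested features). The share of all tested features called was 0.133% at its lowest and 13.9% at its highest, the latter without 52X WT replicate 2. This says little about stability, since members entered the test only without a filter on low counts and with DESeq2, 5 in each case. In the block fit without a filter, an alternative added after the data had been seen, the 5 copies had an adjusted p of 0.958 in edgeR (unadjusted 0.353). The labels do not say that replicate numbers pair libraries, and deviations from the group means correlated at 0.0946 between libraries of equal number (1480 features). The number of members whose groups did not overlap ran from 0 to 5 when a library was left out, beside 29.4 to 33.5% of all features. It was 5 without 52X T4A replicate 2, which leaves 52X T4A replicate 1 alone against both 52X WT libraries, and 0 without any other library or with other scaling factors. These member numbers are fixed by which library holds counts, so they do not bear on whether the groups differ. The summed level in 52X T4A minus that in 52X WT was 0.474 CPM, where the sum may count a read at several loci. It ran from 0.462 to 0.487 CPM with other scaling factors, was 0 without 52X T4A replicate 1 and 0.910 without 52X T4A replicate 2, and stayed at 0 for SNORD115 throughout. No log2 ratio of summed levels is given under any setting, because 52X WT was at 0. Nor is a fitted fold change of the 5 copies or a median over them, as it would depend on the prior count. Depth limits the comparison to levels above 3 counts in a library, 0.095 to 0.206 CPM.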
